A study of Mus musculus with 11 samples.

Results

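The genes described here encode the proteins of the mitochondrial ribosome. They were taken as the protein-coding genes of the deposited table whose symbols begin with Mrpl or Mrps followed by a digit, which gave 77 of the 48897 genes in the table. By their known place in the ribosome, 26 belong to the small subunit and 50 to the large subunit. Mrps18a and Mrps30 carry small-subunit names but sit in the large subunit. Mrps36 carries a ribosomal name but is now known as a part of the 2-oxoglutarate dehydrogenase complex, and it is counted among the 77 but in neither subunit. The members lie on 17 chromosomes.

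The RNA came from injured mouse arteries taken on day 7 after injury, from mice lacking the transcription factor Nrf3 (Nrf3-/-, gene symbol Nfe2l3) and from flox mice as controls. Femoral arteries were injured with a wire, in 3 control and 3 knockout libraries, and carotid arteries were ligated, in 3 control and 2 knockout libraries. The labels give no strain, age, sex or Cre line, and do not say whether replicates are separate or pooled animals, so p-values measure the spread between these libraries. Each library is whole arterial tissue, in which fewer cells of a type and less RNA per cell cannot be told apart.

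Mitochondria keep their own ribosome, which translates the few proteins encoded by mitochondrial DNA, all of them subunits of the respiratory chain or ATP synthase. Its ribosomal RNAs come from the mitochondrial genome, whereas all of its proteins are encoded in the nucleus, made in the cytosol and imported. Many have a counterpart in the bacterial ribosome, and others exist only in mitochondria. The small subunit reads the messenger RNA, and the large subunit joins the amino acids and feeds the growing chain into the inner membrane.

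Library totals ran from 43698644 to 55998563 counts, and the 77 members together took 0.187 to 0.248% of them. The targeted gene, Nfe2l3, had 48, 81 and 37 counts in the femoral controls against 11, 2 and 0 in the femoral knockouts, and 57, 75 and 85 against 9 and 8 in the carotid artery. Its log2 changes were −3.50 ± 0.78 (adjusted p 0.0472) and −2.97 ± 0.86 (adjusted p 0.142) by edgeR's quasi-likelihood test. Each member had at least 327 counts in each library, the lowest being Mrpl47, so all 77 entered the test of 21343 genes and none passed its filter through 1 group alone. The spread of the members beyond counting error, as edgeR's biological coefficient of variation, had a median of 12.3%, against 20.4% over all genes tested. These medians were not matched for level, and the genes tested include some with far fewer counts than any member. A gene is termed called where edgeR's quasi-likelihood test gave it a p under 0.05 after Benjamini-Hochberg adjustment across the 21343 genes.

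Mrps12 fell in both knockout vessels to less than 0.5 of its control level, and no other member did. It encodes the counterpart of bacterial S12, a protein of the small subunit that lies at the decoding centre, where codon and anticodon are matched. In the femoral artery its level was 20.8, 22.8 and 19.2 CPM (counts relative to the scaled library total) in the controls and 8.67, 8.73 and 8.56 CPM in the knockouts. Carotid levels were 21.8, 21.4 and 22.7 CPM in the controls and 8.49 and 8.77 CPM in the knockouts. The 5 knockout libraries thus sat within 8.49 to 8.77 CPM across the vessels, and each lay below each of the 6 controls. These levels rest on 1047 to 1245 counts in a control library and 387 to 448 in a knockout library.

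The femoral fall of Mrps12 was −1.28 ± 0.10 on the log2 scale (SE, n = 3 and 3), or 2.42-fold, with an adjusted p of 0.000199 by edgeR's quasi-likelihood test. The carotid fall was −1.35 ± 0.11 (n = 3 and 2), or 2.54-fold, with an adjusted p of 0.000706 in the same test. Averaged over both vessels the change was −1.31 ± 0.07, with an adjusted p of 1.16e-05. Ordered by p among the 21343 genes, Mrps12 stood at place 6 in the femoral artery, 4 in the carotid artery and 5 in the average. The vessels' effects differed by −0.07 (95% interval −0.38 to 0.24, adjusted p 0.918), so a difference of up to 0.38 remains possible at this precision. Mrps12 was the 1 member called in the femoral artery, where 2.51% of all genes tested were called and 0.665% were called lower. It was also the 1 member called in the carotid artery, where 0.923% of genes were called and 0.262% called lower. With same-numbered femoral libraries treated as pairs, 1224 genes were called in the femoral artery in place of 535, and Mrps12 was again the only member among them.

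**Figure D1:**
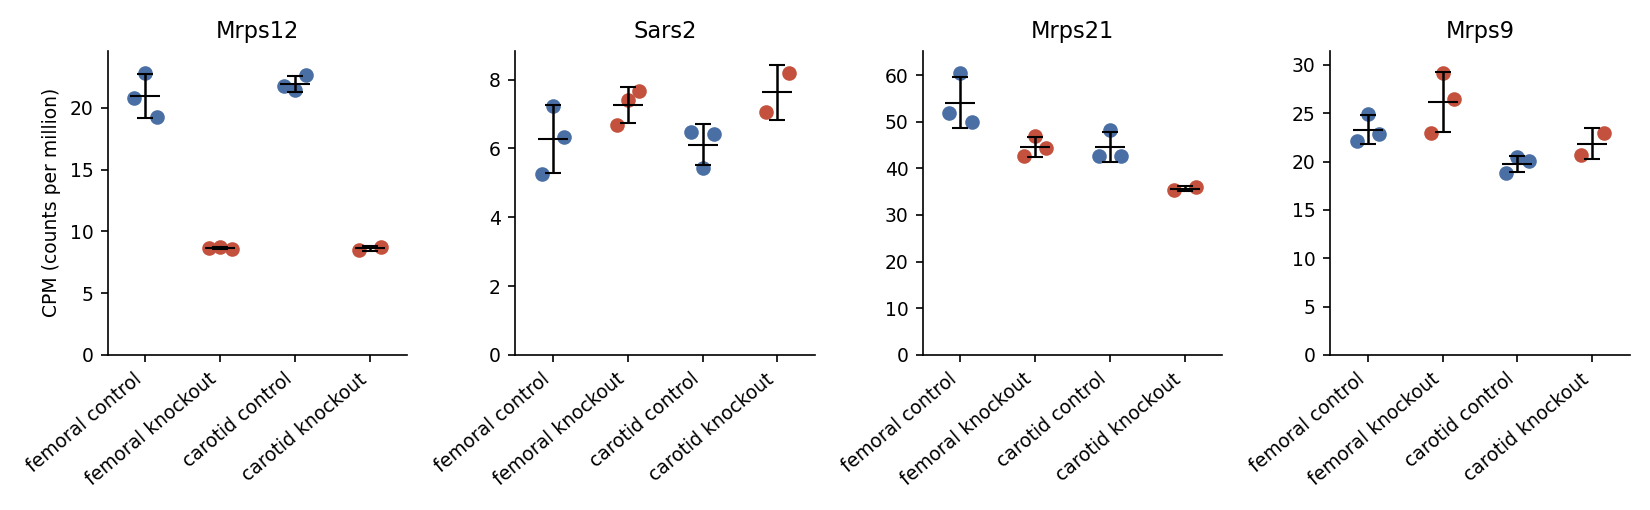
Level in CPM (vertical axis, linear, from 0) of Mrps12, its neighbour Sars2, Mrps21 and Mrps9 in each library of the 4 groups. Points are libraries (blue control, red knockout), and black bars give the group mean and SD (n = 3, or 2 for the carotid knockout). Mrps12 lies at 8.49 to 8.77 CPM in the 5 knockout libraries and at 19.2 to 22.8 CPM in the 6 controls.

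The 95% intervals of the fitted changes, not adjusted for the number of genes, set Mrps12 apart from the rest of the family. Its upper bound was −1.06 in the femoral and −1.10 in the carotid artery. All 76 other members had a lower bound above these values in both vessels. The lowest bound among them was −0.75 for Mrpl42 in the femoral artery, whose change was −0.38, and −0.83 for Mrpl47 in the carotid artery, whose change was −0.39. By CPM per kilobase Mrps12 stood at place 25 of 77 in the femoral controls and 22 in the carotid controls, and at place 56 and 53 in the knockouts. It supplied 4.0 to 4.86% of the summed level per kilobase of the 26 small-subunit genes in the control libraries and 1.79 to 2.15% in the knockout libraries.

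Mrps12 lies on chromosome 7 (28739641 to 28741899, minus strand, GRCm38, NCBI gene 24030), with 5 other members elsewhere on that chromosome. It is transcribed away from Sars2, which encodes the mitochondrial seryl-tRNA synthetase, and 68 bases separate the genes as the table bounds them. That stretch is shown because it is all that lies between a member that fell and a neighbour that did not. It is read from RefSeq (GRCm38.p6, chr7:28741900-28741967, minus strand, 5′ to 3′ towards Mrps12).
Mrps12-Sars2: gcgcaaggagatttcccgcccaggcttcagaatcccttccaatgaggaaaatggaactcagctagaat
None of the 5 motifs searched (given with the promoters at the end) lies in these bases. Sars2 was 5.26, 7.24 and 6.32 CPM in the femoral controls and 6.68, 7.42 and 7.67 CPM in the knockouts. Its carotid level was 6.46, 5.43 and 6.43 CPM in the controls and 7.07 and 8.18 CPM in the knockouts. The knockout mean of Sars2 was thus the higher in both vessels, with groups that overlapped in the femoral artery only. Its average change of 0.26 ± 0.12 did not pass (adjusted p 0.209 by edgeR's quasi-likelihood test).

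Of the 32 other genes tested within 400 kb of Mrps12, a window chosen after the values were seen, none was called lower in either vessel. Over all genes tested 0.665% were called lower in the femoral and 0.262% in the carotid artery, so none among 32 is near the background share. In the femoral artery, where 2.51% of all genes tested were called, 2 of the 32 were called, both higher. They were Gmfg, which encodes an actin regulator of blood cells (1.18 ± 0.26, adjusted p 0.0457), and Map4k1, which encodes a kinase of blood cells (1.09 ± 0.22, adjusted p 0.0360). In the carotid artery none was called by edgeR's quasi-likelihood test, beside 0.923% of all genes. In the average, Eif3k, which encodes a subunit of a cytosolic initiation factor, was called lower at −0.33 ± 0.09 (adjusted p 0.0497). Gmfg and Map4k1 were called higher again, beside 6.31% of all genes called and 2% called lower. The 5 other members on chromosome 7 changed by −0.13 to 0.08 in the femoral artery and by −0.23 to 0.03 in the carotid artery, and none was called.

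**Figure D2:**
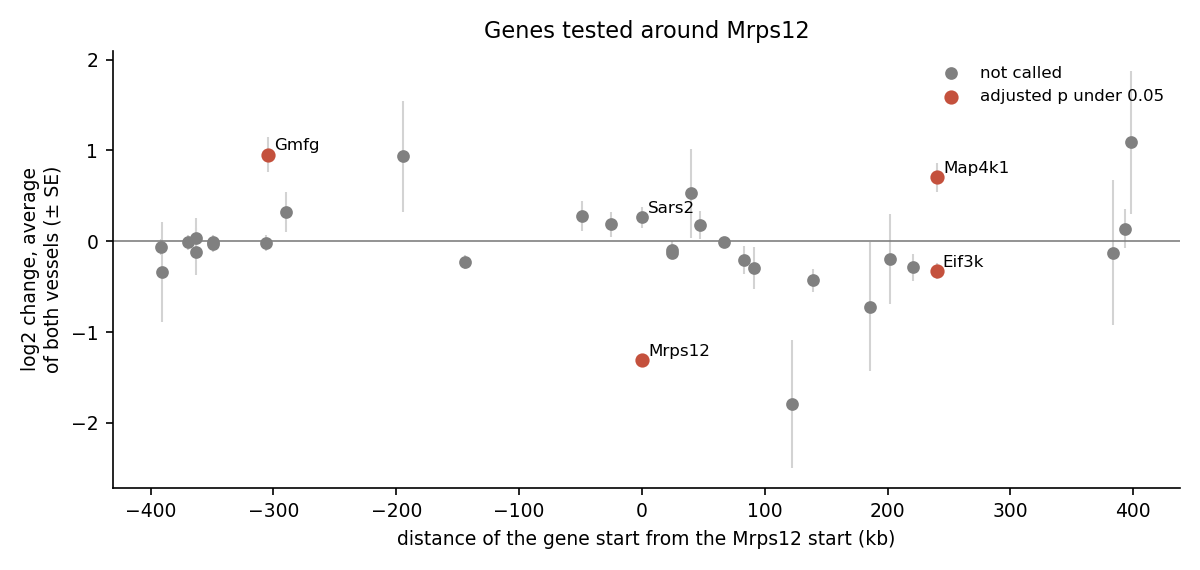
Fitted log2 change averaged over both vessels (vertical axis, with SE bars) of Mrps12 and the 32 other genes tested within 400 kb, against the distance of each gene's start from that of Mrps12 (horizontal axis, kb). Red points are genes with an adjusted p under 0.05. Mrps12 stands at −1.31, beside Sars2 at 0.26.

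Among the other 25 small-subunit genes, changes were small and mostly negative. Mrps21, the counterpart of bacterial S21, was the only further member called, and only in the average of both vessels. It lies on chromosome 3 (95862646 to 95871551, minus strand, GRCm38, NCBI gene 66292). In the femoral artery it was 51.9, 60.4 and 50.01 CPM in the controls and 42.6, 46.8 and 44.3 CPM in the knockouts. Carotid levels of Mrps21 were 42.6, 48.3 and 42.7 CPM in the controls and 35.3 and 36.0 CPM in the knockouts. The knockout libraries were the lower in both vessels, with no overlap. The average change of Mrps21 was −0.30 ± 0.07 with an adjusted p of 0.0330 by edgeR's quasi-likelihood test, and neither vessel passed alone (−0.28, adjusted p 0.131, and −0.32, adjusted p 0.189). In the average, 6.31% of all genes were called and 2% were called lower, so 2 called members of 77 is near the background share.

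The call of Mrps21 was lost without any 1 of 7 libraries. They were femoral control 2 (adjusted p 0.0703), femoral knockout 1 (0.0771) and 2 (0.0572), carotid control 2 (0.0626) and 3 (0.0515), and carotid knockout 1 (0.138) and 2 (0.0799). Its change lay within −0.33 to −0.26 whichever of the 11 libraries was left out. A pseudogene of Mrps21, Gm6181, held at most 19 counts in a library, while C920021L13Rik overlaps Mrps21 on the opposite strand, and the strand setting of the counting is not given in the sources used here.

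Mrps7 and Mrps31 came next in the small subunit. Mrps7, whose bacterial counterpart organises the head of the subunit, was 38.5, 44.6 and 37.7 CPM in the femoral controls and 31.8, 35.7 and 39.0 CPM in the knockouts. Carotid levels of Mrps7 were 37.8, 37.6 and 41.9 CPM in the controls and 30.0 and 31.6 CPM in the knockouts. The groups overlapped in the femoral artery and not in the carotid artery, and the average change of −0.26 ± 0.08 missed the threshold (adjusted p 0.0684). Without femoral knockout 3 it passed, with an adjusted p of 0.0392. Mrps31, which has no bacterial counterpart, had an average change of −0.26 ± 0.08 (adjusted p 0.0862) and did not overlap between groups in either vessel.

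Mrps9, the counterpart of bacterial S9, which touches transfer RNA, had the most positive change in both vessels. Its level was 22.1, 24.9 and 22.8 CPM in the femoral controls and 22.9, 29.1 and 26.4 CPM in the knockouts. The carotid levels of Mrps9 were 18.8, 20.5 and 20.0 CPM in the controls and 20.7 and 23.0 CPM in the knockouts. It was the only 1 of the 77 members to be higher without overlap in a vessel, the carotid. Over all 21343 genes tested, 3499 were higher without overlap in the carotid and 2834 in the femoral artery. The changes of Mrps9, 0.17 ± 0.11 and 0.14 ± 0.12, did not pass (adjusted p 0.421 and 0.629 by edgeR's quasi-likelihood test). Other small-subunit genes with a positive change in a vessel included Mrps10 (0.14 in the femoral artery), Mrps25 (0.09 in the carotid artery), Mrps35 (0.08) and Mrps2 (0.06), with Mrps18c at 0.07 and 0.02. Mrps10 was at −0.09 in the carotid artery. In the femoral artery Mrps25 was at −0.07, Mrps35 at −0.13 and Mrps2 at −0.02. Mrps10 and Mrps2 have bacterial counterparts, Mrps25 and Mrps35 do not, and Mrps18c is 1 of a trio of paralogs of bacterial S18.

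No gene of the 50 of the large subunit was called in either vessel or in the average. At an unadjusted p under 0.05 there were 3 lower in the femoral artery, 8 in the carotid artery and 12 in the average, and none higher. Over all 77 members there were 6, 11 and 18 lower at this p, while the share of all genes tested was 8.56%, 6.57% and 9.99%. Of the 50 large-subunit genes, DESeq2 called none in either vessel and called Mrpl34 and Mrpl53 in the average. Limma-voom called none of the 50. The number of all genes called in the average differed widely between settings (range in the closing section). The shares of DESeq2 and limma-voom over all genes are not given here, so these counts have no background beside them. Mrpl34, the counterpart of bacterial L34, was 21.7, 24.99 and 22.1 CPM in the femoral controls and 17.3, 18.6 and 18.9 CPM in the knockouts. Carotid levels of Mrpl34 were 23.1, 24.6 and 21.1 CPM in the controls and 17.6 and 21.6 CPM in the knockouts, where the groups overlapped. Its average change was −0.28 ± 0.08 (adjusted p 0.0723). Mrpl53, a mitochondria-specific protein, had an average change of −0.27 ± 0.08 (adjusted p 0.0738) and did not overlap between groups in either vessel. Mrpl16, the counterpart of bacterial L16, had the most positive average change among the large-subunit genes, at 0.06 ± 0.11.

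Ordered by level per kilobase of the table's gene length, the family spanned 41.4-fold, from 2.92 CPM per kilobase for Mrpl1, of the flexible stalk beside the exit of transfer RNA, to 121 for Mrpl33. The median was 18.4. Mrpl33, Mrpl52 and Mrps21 held the top places, at 121, 117 and 89.0 CPM per kilobase. Mrpl33 and Mrpl52 differed by less than the SD between libraries of Mrpl33. Mrpl19 and Mrpl15, at 4.10 and 4.13 CPM per kilobase, differed by less than their own spread and stood just above Mrpl1. These lengths, 5016 and 7204 bases for Mrpl19 and Mrpl15 against 466 for Mrpl33, are the table's, and where shorter transcripts prevail such levels are too low for a long gene model.

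Most members had a small negative change in the knockout. In the femoral artery 64 of 77 were below 0 with a median of −0.09, beside 53.0% of all genes tested and a median of −0.02. In the carotid artery 68 of 77 were below 0 with a median of −0.18, beside 49.5% and 0.00. Groups did not overlap, with the knockout lower, for 6 members in the femoral artery, where 12.1% of all genes did so, and for 44 in the carotid artery, where the share over all genes was 15%. In both vessels this held for 5 members, namely Mrps12, Mrps21, Mrps31, Mrpl10 and Mrpl53, against 3.28% of all genes. None was higher without overlap in both vessels, against 4.61% of all genes. All members are read in the same 11 libraries and are not independent of each other.

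The femoral shift depended on single libraries. Femoral control 2 had the highest level of the 3 femoral controls for 76 of the 77 members, and femoral knockout 2, which bears the same number, had the highest of the 3 knockouts for 54. Femoral knockout 1 had the lowest of the knockouts for 63. Without femoral control 2 the femoral median was 0.01 with 38 of 77 members below 0. Without femoral knockout 1 it was −0.03 with 49 below 0. In the other direction it was −0.15 both without femoral control 3 and without femoral knockout 2, with 66 below 0 each time. Femoral control 2 stood apart in several measures. It held the most skeletal muscle RNA, at 6379 CPM summed over 12 markers, against 694 and 3538 CPM in the other femoral controls and 224, 1877 and 463 CPM in the femoral knockouts. It was also the highest femoral control in white fat markers (3019 CPM against 1793 and 1765), in mitochondrial messenger RNA (31366 CPM against 24425 and 22506) and in the mean log2 CPM of cytosolic ribosomal protein genes (8.78 against 8.56 and 8.47). With the skeletal muscle markers as a covariate, the only one of these measures fitted, the femoral median was −0.03 with 44 below 0. The part of the other measures in the shift was not tested. The carotid median stayed between −0.20 and −0.14 whichever library was left out.

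**Figure D3:**
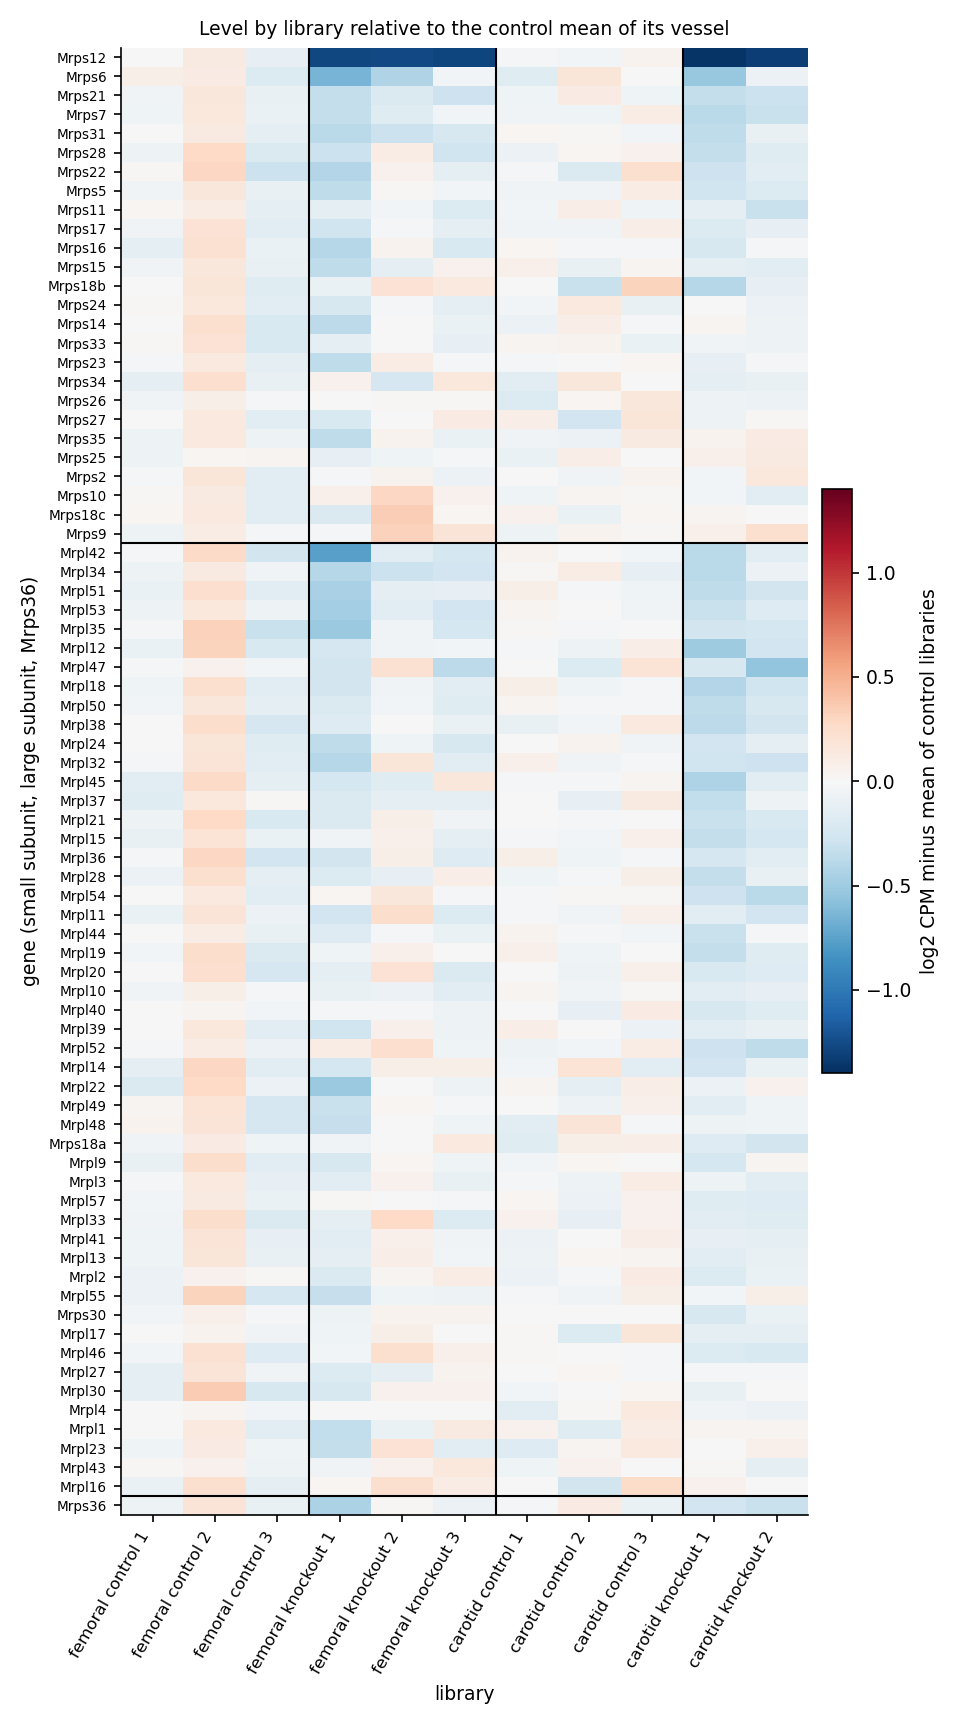
Log2 CPM of each of the 77 members (rows, small subunit, then large subunit, then Mrps36, each ordered by average change) in each of the 11 libraries (columns), minus the mean of the control libraries of its vessel. Blue is lower and red higher. Mrps12 is the dark blue row, femoral control 2 is red for nearly all members, and the carotid knockout columns are pale blue for most.

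In the femoral artery the median change was −0.13 over the 26 small-subunit genes and −0.08 over the 50 large-subunit genes. The carotid medians were −0.12 and −0.20, and the difference between the subunits was not tested. The small-subunit sum per kilobase went from 656 ± 69.0 to 585 ± 49.05 CPM per kilobase (SD, n = 3 and 3) in the femoral artery, and from 593 ± 15.5 to 519 ± 16.5 (n = 3 and 2) in the carotid artery. The large-subunit sum went from 1308 ± 155 to 1239 ± 109 in the femoral artery and from 1217 ± 29.4 to 1056 ± 32.5 in the carotid artery. The carotid sums of both subunits did not overlap between groups, while the femoral sums did. The ratio of the small- to the large-subunit sum was 0.494 to 0.507 in the femoral controls and 0.461 to 0.490 in the knockouts, without overlap, but with Mrps12 left out of the sum these ranges were 0.474 to 0.486 and 0.453 to 0.481 and overlapped. The carotid ratio was 0.478 to 0.503 in the controls, with both knockouts inside this range at 0.491 and 0.492. With Mrps12 left out it was 0.455 to 0.480 in the controls, and both knockouts lay above at 0.481 and 0.482. Members with a bacterial counterpart (46) had medians of −0.10 and −0.16, and mitochondria-specific members (30) had −0.08 and −0.19. Mrps36, of neither subunit, stood at −0.16 and −0.29 with no call.

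No member passed the test of a difference between the vessels in the knockout effect, where 0.00469% of all genes passed. DESeq2 and limma-voom called none of them either. At an unadjusted p under 0.05 there were 2 members, beside 8.5% of all genes. They were the large-subunit genes Mrpl52 and Mrpl54, both mitochondria-specific. Mrpl52 was 49.6, 54.6 and 47.9 CPM in the femoral controls and 54.4, 59.7 and 48.4 CPM in the knockouts. Carotid levels of Mrpl52 were 44.9, 46.1 and 50.9 CPM in the controls and 38.6 and 37.0 CPM in the knockouts, which were the lower without overlap. The carotid minus the femoral effect was −0.42 (95% interval −0.74 to −0.10, unadjusted p 0.0152, adjusted p 0.497 by edgeR). For Mrpl54 the difference was −0.39 (−0.69 to −0.08, unadjusted p 0.0181, adjusted p 0.512).

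**Figure D4:**
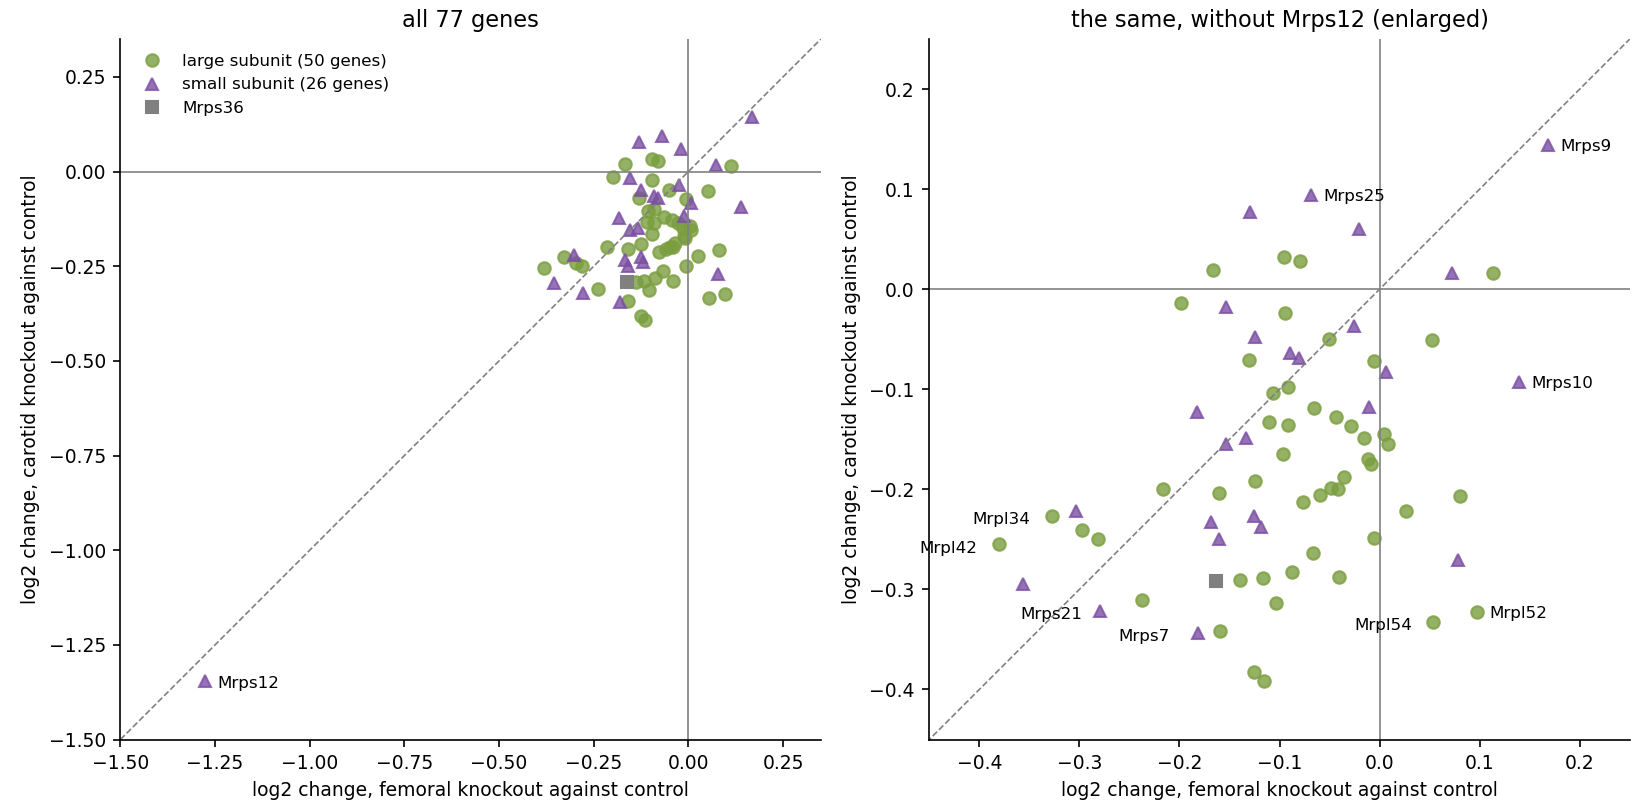
Fitted log2 change of each member in the femoral (horizontal axis) and carotid artery (vertical axis), on the left for all 77 and on the right enlarged without Mrps12. Triangles are small-subunit genes, circles large-subunit genes and the square Mrps36, and the dashed line marks equal change. Mrps12 lies at −1.28 and −1.35, while the other 76 lie between −0.39 and 0.17 in both vessels.

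Between the control groups, where vessel and kind of injury cannot be told apart, no member was called, while 6.21% of all genes were called by edgeR. At an unadjusted p under 0.05 there were 5 members, all lower in the carotid artery, beside 20.2% of all genes, and neither DESeq2 nor limma-voom called any. The 5 were Mrps21 (−0.28), Mrpl41 (−0.27), Mrps6 (−0.41), Mrps18c (−0.30) and Mrps9 (−0.24). Mrps12 was 21.0 ± 1.78 CPM in the femoral controls and 22.0 ± 0.66 CPM in the carotid controls (SD, n = 3 each). The median over the members was −0.09. It was 0.00 without femoral control 2, −0.13 without femoral control 3 and 0.04 with the skeletal muscle covariate.

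Genes that act with the mitochondrial ribosome were mostly without calls. Single calls in the lists that follow are to be read beside the 6.31% of all genes called in the average. Of 6 further subunit genes that carry other names, Gadd45gip1, whose protein sits at the exit tunnel of the large subunit, was the 1 called. It was 34.7, 39.3 and 32.4 CPM in the femoral controls and 26.9, 25.5 and 28.7 CPM in the knockouts. Its carotid levels were 33.5, 30.8 and 38.2 CPM in the controls and 25.1 and 23.7 CPM in the knockouts. The groups of Gadd45gip1 did not overlap in either vessel, and its average change was −0.44 ± 0.08 with an adjusted p of 0.0123 by edgeR. It passed in neither vessel alone (adjusted p 0.0745 and 0.0893).

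Of 26 assembly factors of the mitochondrial ribosome, Trub2 alone was called in the average. It encodes an enzyme that makes pseudouridine in mitochondrial RNA, and it rose by 0.37 ± 0.09 (adjusted p 0.0362). Of 15 translation factors, Pdf, which removes the formyl group from new mitochondrial proteins, was the 1 called, at −0.27 ± 0.07 (adjusted p 0.0453). None of 20 mitochondrial aminoacyl-tRNA synthetases was called by edgeR. At an unadjusted p under 0.05 in the average 2 of them were lower and 1 higher, beside 2133 and 2734 of all 21343 genes tested. The smallest p values there were those of Yars2, for tyrosine, at −0.29 (adjusted p 0.0867) and Cars2, for cysteine, at −0.21 (adjusted p 0.145). None of 21 genes of mitochondrial transcription and RNA handling was called, with 1 lower at an unadjusted p under 0.05, Fastkd5, an RNA processing factor, at −0.37 (adjusted p 0.120), and Polg2, of the mitochondrial DNA polymerase, followed at 0.35 (adjusted p 0.233). Of 10 regulators of mitochondrial biogenesis, Ppargc1b, a transcriptional coactivator, was called, at 0.63 ± 0.16 (adjusted p 0.0420).

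The messages that the mitochondrial ribosome translates were measured too. The 13 messenger RNAs of the mitochondrial genome summed to 26099 ± 4661 CPM in the femoral controls and 22963 ± 5366 CPM in the knockouts (SD, n = 3 and 3). Carotid sums were 19775 ± 1024 and 19350 ± 2485 CPM (n = 3 and 2). These differences were within the spread of the groups. Of the 15 transcripts of the mitochondrial genome tested, none was called in either vessel or in the average by edgeR. None had an unadjusted p under 0.05, while 6.31% of all genes tested were called in the average. ND2 and COX3, a subunit gene of complex I and 1 of complex IV, had the smallest p in the average, at −0.28 and −0.29 (adjusted p 0.261 and 0.309).

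Of 80 nuclear genes for oxidative phosphorylation subunits, none was called by edgeR, while 6.31% of all genes tested were called in the average. At an unadjusted p under 0.05 in the average 4 were lower, beside 9.99% of all genes. The medians of these 80 genes were −0.11 in the femoral and −0.12 in the carotid artery, beside −0.09 and −0.18 for the 77 mitochondrial ribosomal protein genes. Atp5k, of ATP synthase, and Ndufb10, of complex I, had average changes of −0.25 and −0.23 (adjusted p 0.111 and 0.141). Genes for the cytosolic ribosome are given beside them. Over 82 tested, the median was 0.04 in the femoral artery with 22 below 0, and −0.17 in the carotid artery with 82 below 0. In the carotid artery 63 of them were lower without overlap, beside 15% of all genes tested. Their 1 call in the average was Rpl39l, a paralog of Rpl39 known for its use in the testis, at −1.37 ± 0.36 (adjusted p 0.0477), from a level of at most 1.06 CPM.

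**Figure D5:**
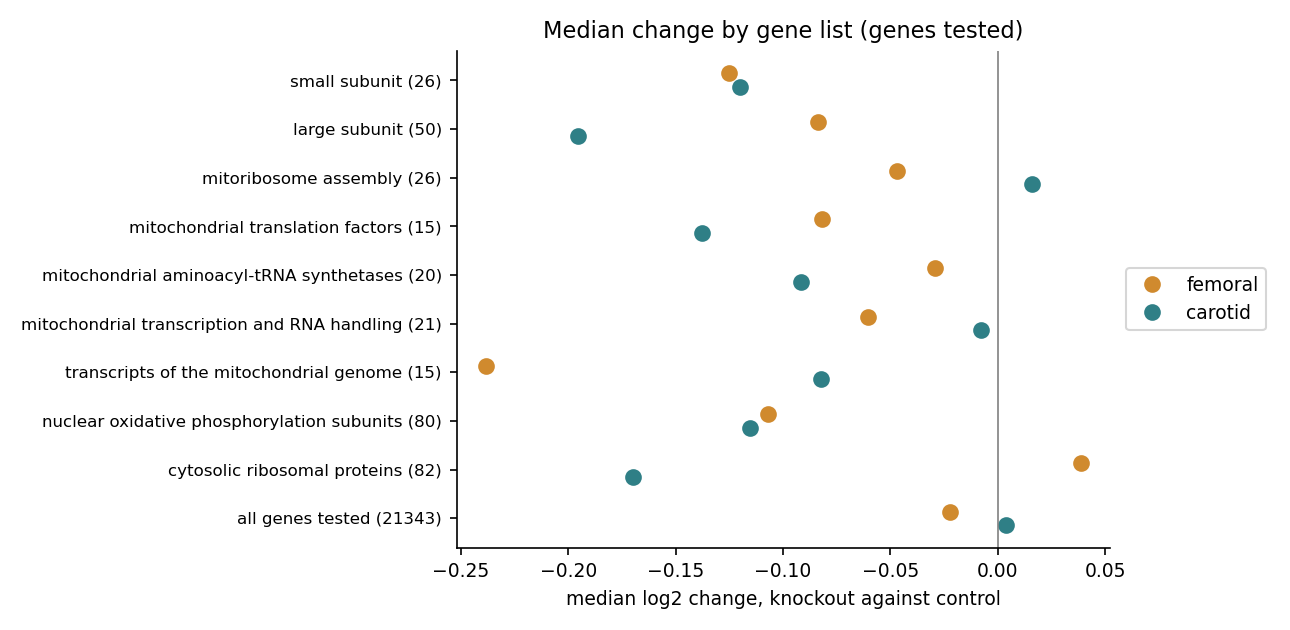
Median fitted log2 change (horizontal axis) of the genes of each list in the femoral (orange) and carotid knockout (teal) against control, with the number tested in brackets. Small- and large-subunit genes stand at −0.13 and −0.08 in the femoral and −0.12 and −0.20 in the carotid artery, and cytosolic ribosomal protein genes at 0.04 and −0.17.

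Markers of other cells of the wall moved alongside. Over all genes tested, 6.31% were called in the average and 2.51% in the femoral artery. All 5 T cell markers were called higher in the average, with Cd3e at 2.28, Cd5 at 2.00, Cd3d at 2.01 and Trac at 1.42, and their sum went from 7.99 to 14.4 CPM in the femoral controls to 25.9 to 33.4 in the knockouts, and from 3.56 to 6.93 to 22.5 to 30.2 CPM in the carotid artery. All 5 neutrophil markers had positive changes in both vessels, with sums of 87.4 to 233 CPM in the femoral controls and 270 to 758 CPM in the knockouts, and Lcn2 was called in the average (2.32). Cd68 was the 1 of 5 macrophage markers called there (0.52), and 2 of the 5 were called higher in the femoral artery. All 5 cell cycle markers were below 0 in both vessels, with carotid sums of 193 to 355 CPM in the controls and 141 to 162 CPM in the knockouts, and Top2a (−0.55) and Cdk1 (−0.57) were called in the average.

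In the femoral artery all 12 skeletal muscle markers were below 0, with a median of −2.05, no call by edgeR and 1 lower at an unadjusted p under 0.05. Eno3 stood at −2.35 and Tnni2 at −2.01 there. In the carotid artery 8 of the 12 were below 0 and 4 above, with a median of −0.32 and no call. No marker of smooth muscle, of brown or white fat or of endothelium was called by edgeR in either vessel or in the average. At an unadjusted p under 0.05 there were 2 endothelial markers lower in the femoral artery, 2 higher in the carotid artery and 1 smooth muscle marker lower in the average. Of all 21343 genes tested, 1828 were lower in the femoral artery at this p, 1692 higher in the carotid artery and 2133 lower in the average. Median changes in the femoral and carotid artery were −0.30 and −0.08 for smooth muscle (8 markers), 0.07 and 0.36 for brown fat (6), −0.31 and 0.14 for white fat (6), and −0.24 and 0.23 for endothelium (5). Among these, Acta2 and Tagln of the contractile apparatus were at −0.43 and −0.33 in the average and the endothelial genes Vwf and Kdr at 0.35 and 0.13. The fat genes Lep and Cfd were at −0.69 and −0.31, and the brown fat genes Ucp1 and Elovl3 at 1.83 and 2.62, both highest in carotid knockout 2 (204 and 10.5 CPM). In the average 3 of the 6 brown fat markers were below 0, with a median of −0.01 over the 6. Of the 5 endothelial markers 2 were below 0 there, with a median of 0.02 over the 5. Acta2, of the smooth muscle markers, was abundant in each library, between 2863 and 6085 CPM. The part of these cell types in the changes of the ribosomal genes was not tested beyond the muscle covariate, under which Mrps12 changed by −1.24 and −1.34 with adjusted p of 0.00130 and 0.00138.

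The promoters of the family were searched for 5 short motifs. RefSeq windows of 250 bases before to 50 bases after the start (GRCm38.p6) were held for 68 of the 77 members by NCBI gene ID. Both strands were read, and the background was all 17197 protein-coding genes of the table with a window. This background holds the members too, and also genes that did not pass the expression filter, since 15625 protein-coding genes were tested. All members passed that filter. A gene with more than 1 window, as 3 members had, was counted once, with a match in any window. Nuclear respiratory factor 1 is a regulator of mitochondrial genes that is not related to Nrf3 in spite of its short name NRF-1. Its motif was searched as GCGCANGC and lay in 32.4% of members with a window (22 of 68) and in 2582 of the 17197 background genes. The ETS motif CCGGAAGT, read by GABP, lay in 17.6% against 5.76%, and the YY1 motif AAGATGGC in 17.6% against 3.57%. The motif TGACNNNGC, which CNC factors such as Nrf3 read with small Maf partners, lay in 19.1% against 14.9%, and the E-box CACGTG in 7.35% against 9.01%. Matches of different motifs may overlap, and a match is a description of letters, not of binding.

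The window of Mrps12 held 1 match, of the YY1 motif on the opposite strand 199 bases before its RefSeq start (28741821, inside the gene as the table bounds it) and therefore within Sars2. The windows of Mrps21 and Mrps7 are shown because these genes had the next smallest p in the average, with motif matches in capitals and only bases outside the genes as the table bounds them. They are chr3:95871552-95871664 (minus strand) and chr11:115603990-115604139 (plus strand), each 5′ to 3′ towards the gene, from RefSeq (GRCm38.p6).
Mrps21: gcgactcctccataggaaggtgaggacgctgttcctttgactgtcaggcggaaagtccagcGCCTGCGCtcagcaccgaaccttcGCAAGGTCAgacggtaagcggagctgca
Mrps7: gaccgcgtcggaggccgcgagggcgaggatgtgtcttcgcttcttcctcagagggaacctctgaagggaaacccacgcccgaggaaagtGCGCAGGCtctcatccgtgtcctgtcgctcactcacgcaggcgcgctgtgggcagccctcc
In the Mrps21 stretch the first run of capitals is a match of the NRF-1 motif and the second a match of the CNC motif, both on the opposite strand. In the Mrps7 stretch the capitals are a match of the NRF-1 motif. A head-to-head partner within 1000 bases was found for 22 members (28.6%), against 10.1% of 15625 protein-coding genes tested. Among the partners of these 22 members, Mrps12 and Sars2 left aside, 1 was called in the average, beside 6.31% of all genes tested. It was Pnpla7, the partner of Mrpl41 (0.53, adjusted p 0.0164 by edgeR's quasi-likelihood test). Mrpl41 itself was not called (−0.09).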

How the data were processed

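The deposited table holds raw read counts per gene, whole numbers, for 11 libraries. Per the submitters' processing notes, the authors' tools were HISAT2, HTSeq, edgeR, DESeq and DESeq2, without versions. The strand setting is not given in the sources used here. These notes name mm9, while positions in the table match GRCm38, which is the build given. Counts were tested with edgeR 4.0.16 (R 4.3.3): genes kept by filterByExpr, trimmed-mean scaling, 1 quasi-likelihood fit of all 11 libraries with 4 group means and 7 residual degrees of freedom, two-sided tests, Benjamini-Hochberg adjustment over 21343 genes, threshold 0.05. The contrasts were each vessel's knockout against control, their difference, their average and the carotid against the femoral controls. CPM use the scaled library sizes, and levels between genes are divided by the table's gene length. The standard error is the absolute log2 change over the square root of F. Alternatives used DESeq2 1.42.0 and limma 3.58.1. Python 3.11.15, pandas 2.3.3 and matplotlib 3.10.9 made motif tables and figures.

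The members and lists were chosen with earlier results of these data known. Named were Mrps12, each called member, the 4 smallest p per direction in each vessel and the average, the 3 highest and lowest levels, and from each other list up to 4 called genes or else the 2 of smallest p in the average. Mrps31, Mrpl10, Mrpl42, Mrpl47, Mrps6, Mrpl41 and the neighbours of Mrps12 were named after their values were seen. Deviations from the group mean correlated between same-numbered femoral libraries at r = 0.33, 0.39 and 0.21, over genes. Between femoral control and knockout libraries of different number, r ran from −0.4 to 0.084. The sample titles do not state pairs, and whether shared tissue content gave these correlations was not tested. The main fit is therefore unpaired, and same-numbered libraries were treated as pairs only in the replicate block. The carotid numbers gave −0.07 and −0.19 by the titles and −0.07 and 0.11 by the descriptions. With 2 carotid knockout libraries the deviations mirror each other, so these correlations cannot decide on pairs. The carotid knockout titled replicate 2 is numbered 3 in its description, so both numberings were tried. The code was tested on simulated data with known changes.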

Additional observations from a re-analysis of the deposited data

How the results depend on the processing

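Mrps12 was called in both vessels and in the average under each alternative setting run and without any 1 of the 11 libraries, with a change between −1.32 and −1.21 (femoral) and between −1.37 and −1.32 (carotid). Its highest adjusted p was 0.00351 in the femoral and 0.0351 in the carotid artery, both with only the 2 groups compared in the fit. The number of members called in the average, 2, was 6 with DESeq2 (adding Mrps7, Mrps31, Mrpl34 and Mrpl53) and 1 with the skeletal muscle covariate, which lost Mrps21 (adjusted p 0.0820), and 1 to 3 when a library was left out. The counts of members called in the femoral artery (1), the carotid artery (1), the difference between vessels (0) and the controls (0) were the same under each setting run. Over all genes, the calls ran from 78 to 1834 in the femoral artery, 26 to 990 in the carotid artery, 474 to 2609 in the average, 0 to 171 for the difference and 510 to 2314 between controls.

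Changes close to 0, none of them called, turned sign without 1 library, and the cause was not tested. Over left-out libraries Mrps2 in the carotid artery ranged from −0.041 to 0.145 (lowest without carotid knockout replicate 2). In the average, Mrps18c ranged from −0.034 to 0.105 (lowest without femoral knockout replicate 2) and Mrps10 from −0.015 to 0.055 (below 0 without femoral control 3, femoral knockout 2 or carotid knockout 1). The summed small-subunit level of the carotid knockout, 87.5% of control, was 90.7% without division by gene length. Left-out libraries moved the sums to 85.4 to 94.7% (small, femoral, main 89.2%), 90.3 to 102% (large, femoral, 94.8%), 85.6 to 89.5% (small, carotid) and 84.9 to 88.7% (large, carotid, 86.8%). With the replicate block the members called were 1 (femoral), 1 (carotid), 0 (difference) and 2 (average) under either numbering, and no call of a named member changed. The femoral change of Mrps12 was −1.27 under both. With 2 carotid knockout libraries, 1 is assumed to vary like the other groups when the other is left out.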
